A study of Mus musculus with 6 samples.

Results

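Collagen chains are the polypeptides that wind together, with copies of themselves or with partner chains, into the triple helices of the extracellular matrix. The genes described here are the protein-coding mouse genes whose symbol is Col, a number, the letter a and a number, found by matching gene IDs without their version. They numbered 44 among the 48440 genes of the count table. By the structure they build, 11 were fibrillar chains, 9 basement membrane chains, 6 chains of collagen VI, 9 fibril-associated chains (FACIT, which sit on fibrils without forming them), 4 transmembrane chains, and 5 belonged to none of these classes.

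The cells were mouse ovarian surface epithelial cells, the layer that covers the ovary. Control cells, labelled WT, received an adenovirus with GFP (Ad-GFP, 3 libraries). Cells labelled Lats1/2 knockout received an adenovirus with Cre recombinase and GFP (Ad-Cre-GFP, 3 libraries), and poly(A)-selected RNA was sequenced 7 days later. LATS1 and LATS2 are the Hippo pathway kinases that restrain the coactivators YAP and TAZ. The labels give neither the alleles nor the strain, and both groups share adenovirus and GFP. Because only the knockout cells received Cre, Cre exposure and deletion of the kinase genes cannot be told apart. Whether the replicates of a group were grown separately is not stated in the labels, and the p-values therefore reflect only how far these libraries scatter, which may be technical scatter.

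Fibrillar collagens give tissue its tensile strength, and collagen IV forms the sheet-like network of basement membranes. Collagen VI forms beaded filaments that lie between the fibrils and the cell surface. In the ovary the surface epithelium rests on a basement membrane, beneath which lies the collagen-rich tunica albuginea. A chain is secreted only as part of a trimer, so the partners of a trimer are read side by side here.

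Library totals ran from 18690235 to 30304033 counts, and every knockout library was deeper than every control library. Lats1 fell from 159 ± 8.74 to 37.0 ± 1.36 CPM (SD, n = 3), which are TMM-scaled counts in 1e+06 of the library, and Lats2 from 129 ± 2.17 to 98.6 ± 1.97 CPM. Lats2 thus kept 76.2% of its control level, and counts over whole genes do not show the deleted exons, so "knockout" below means the libraries so labelled, not a measured absence of either gene. All 13 surface epithelial markers passed the low-count filter, but 12 of them changed, 6 in each direction. Krt19 went from 559 to 185, Gata4 from 273 to 106, Wt1 from 200.5 to 90.6, Cdh2 from 216 to 825, Msln from 413 to 886 and Krt18 from 563 to 595 CPM (means). Of all 14811 genes tested, 69.8% were called at an adjusted p under 0.05, with 34.0% higher and 35.8% lower in the knockout cells, and 73.0% did not overlap between the groups. Ad-GFP replicate 3 lay away from its fellow controls on principal component 2 (3.15% of the variance) and was the highest control for 17 of the 24 collagen chains tested. Leaving it out changed no call of a collagen chain.

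The deposited table put 1.30% to 1.36% of each control library on collagen chains, against 0.780% to 0.818% of each knockout library. Of the 44 chains, 24 passed the low-count filter, and each of those reached its minimum in both groups. By edgeR's quasi-likelihood test 15 of the 24 fell and 5 rose, which is 83.3% called beside 69.8% of all genes tested. Of all genes tested, 35.8% were called lower and 34.0% higher. The 20 called chains were also the chains whose control and knockout libraries did not overlap, beside 73.0% of all genes tested without overlap. The median log2 fold change was -0.52 over the tested chains, with a range of -4.30 to 3.29, and -0.01 over all genes tested. Log2 fold changes are knockout over control and carry their standard error, and adjusted p-values are from the same edgeR test over all 14811 genes. In bulk RNA, fewer cells of a kind and less RNA per cell cannot be told apart.

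**Figure D1:**
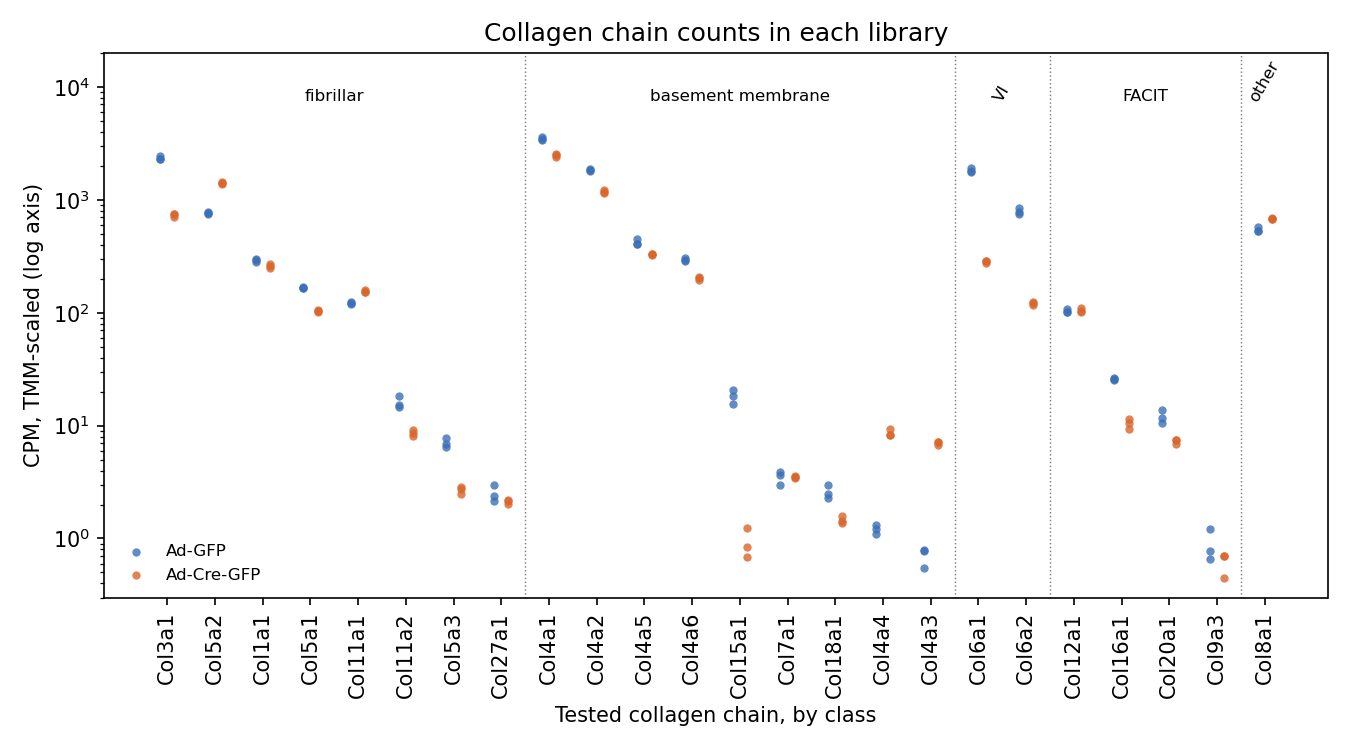
CPM (log axis) of the 24 tested collagen chains in each of the 3 control and 3 knockout libraries, grouped by class. Col6a1, Col6a2, Col3a1 and Col15a1 sit lower in all 3 knockout libraries, and Col5a2, Col4a3 and Col4a4 sit higher.

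**Figure D2:**
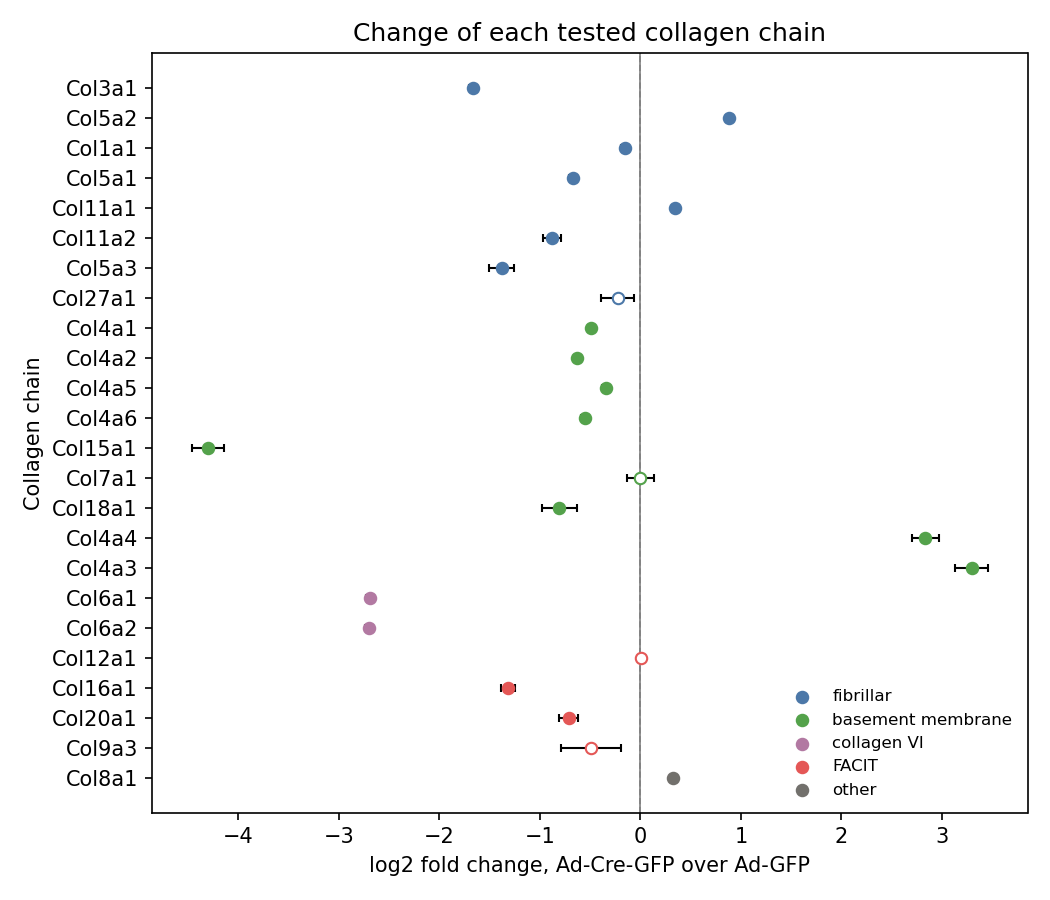
Log2 fold change (knockout over control) with its standard error for the 24 tested chains, where filled points passed an adjusted p of 0.05 and open points did not; the dashed line is the median of all genes tested. The 4 open points are Col7a1, Col12a1, Col27a1 and Col9a3.

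Sequences before the starts of 5 of the chains are shown as examples of genes that had large changes or changed as neighbours. Coordinates are GRCm38, the sequences are from RefSeq (GRCm38.p6), each is read 5′ to 3′ on the strand named, and stretches inside annotated transcripts were left out. Capitals mark matches, on either strand, to any of 5 motifs that were searched for. The first is GGAATG, which is bound by TEAD factors, the partners that bring YAP and TAZ to DNA. The next is the AP-1 motif, spelled TGANTCA with N for any base. The GC box was searched as GGGCGG, the box named for its letters as CCAAT, and the TATA box as TATAAA. No letters are counted under more than 1 motif in the stretches shown. The first stretch is the whole of the 71 bases between the head-to-head starts of Col4a4 and Col4a3, at chr1:82586850-82586920 on the minus strand, and holds none of the motifs.
between Col4a4 and Col4a3 starts: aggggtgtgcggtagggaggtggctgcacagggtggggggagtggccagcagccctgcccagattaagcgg
The next pair lies before Col6a1 (chr10:76726169-76726294, minus strand) and before Col6a2 (chr10:76623631-76623880, minus strand), and the last before Col3a1 (chr1:45311288-45311537, plus strand).
Col6a1 upstream: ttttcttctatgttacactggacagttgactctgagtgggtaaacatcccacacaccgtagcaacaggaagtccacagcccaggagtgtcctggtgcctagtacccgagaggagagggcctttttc
Col6a2 upstream: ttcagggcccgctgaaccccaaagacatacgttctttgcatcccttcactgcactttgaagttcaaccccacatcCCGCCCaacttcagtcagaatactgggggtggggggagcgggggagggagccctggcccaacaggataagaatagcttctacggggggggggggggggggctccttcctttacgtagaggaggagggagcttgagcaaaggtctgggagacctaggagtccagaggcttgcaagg
Col3a1 upstream: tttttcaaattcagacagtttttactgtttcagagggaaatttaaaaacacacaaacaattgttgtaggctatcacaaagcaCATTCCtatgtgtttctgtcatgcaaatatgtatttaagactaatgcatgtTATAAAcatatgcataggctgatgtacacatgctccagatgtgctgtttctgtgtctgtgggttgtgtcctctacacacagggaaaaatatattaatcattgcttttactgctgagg

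The Col6a2 stretch holds a GC box, and the Col3a1 stretch holds the TEAD motif, as its reverse complement, and a TATA box. At 35.2% GC the Col3a1 stretch lies at the 5.0 percentile of all upstream windows, whose median is 52.4%. A promoter entry was found for 19 of the 24 tested chains, and the 250 bases before each start were searched. A chain was counted if any of its windows matched, whereas the shares of all windows are per window. Col6a2 and Col18a1 had more than 1 window, so the chain counts and the window shares are not fully alike. The TEAD motif was in the window of 4 of the 19 (Col3a1, Col6a2, Col18a1 and Col20a1), against 12.642% of all 32851 promoter windows. In Col6a2 it lay before its other annotated start, not in the stretch shown. The AP-1 motif was in 1 of 19 (Col6a1, inside its annotated first exon), against 6.749% of all windows. The GC box was in 13 of 19 (32.742% of all windows), the CCAAT box in 8 (33.85%) and the TATA box in 2, Col3a1 and Col11a2 (12.368%). Such matches describe the letters of the window and are not binding sites. Col15a1, which had the largest fall of any tested chain, is not among the stretches shown, and its window held none of the motifs.

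Among the fibrillar chains, Col3a1 fell and Col5a2, the gene next to it, rose. Col3a1, the single chain of collagen III, which forms fine reticular fibres, was at 2288, 2292 and 2463 CPM in the controls and at 748, 756 and 710 CPM in the knockouts. Its groups lay far apart, a 3.18-fold lower level in the knockouts (log2 fold change -1.67 ± 0.04, adjusted p = 4.29e-20). Col5a2, a chain of collagen V, which is built into fibrils and limits their width, was at 761, 777 and 748 CPM in the controls and at 1433, 1397 and 1381 CPM in the knockouts. Every knockout library was above every control library, a 1.84-fold rise (0.88 ± 0.03, adjusted p = 7.55e-17). The genes lie tail to tail on chromosome 1, Col3a1 at 45311538 to 45349706 on the plus strand and Col5a2 at 45374321 to 45503282 on the minus strand, with 24.6 kb between them. Per kilobase of exon, Col3a1 went from 239 to 75.2 CPM per kb and Col5a2 from 79.5 to 146 CPM per kb, so their order reversed.

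Col5a1, the partner of Col5a2 in the common form of collagen V, moved the other way. It was at 165, 165 and 167 CPM in the controls and at 105, 102 and 105 CPM in the knockouts (-0.67 ± 0.03, adjusted p = 1.62e-14). The ratio of Col5a1 to Col5a2, each per kilobase of exon, was 0.246 ± 0.00622 in the controls and 0.0837 ± 0.00163 in the knockouts. The groups did not overlap, and an exact 2-sided permutation test gave p = 0.10, the smallest that 3 against 3 libraries allow. Col5a3, the collagen V chain with the lowest level, was at 7.74, 6.41 and 6.94 CPM in the controls and at 2.73, 2.47 and 2.88 CPM in the knockouts. It fell by 1.38 ± 0.12 on the log2 scale (adjusted p = 1.31e-09). Thus 2 collagen V chains fell and 1 rose.

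The collagen XI chains, which nucleate fibrils in cartilage, also moved apart. Col11a1 was at 125, 123 and 120 CPM in the controls and at 160, 153 and 154 CPM in the knockouts, a rise of 0.34 ± 0.03 (log2, adjusted p = 3.1e-09). Col11a2 was at 15.2, 14.6 and 18.1 CPM in the controls and at 8.65, 8.06 and 9.19 CPM in the knockouts, and fell by 0.88 ± 0.09 (log2, adjusted p = 9.11e-09). Neither gene's groups overlapped. Col27a1, a chain of developing cartilage, went from 2.50 ± 0.417 to 2.13 ± 0.0778 CPM, its groups overlapped, and it did not pass the test (-0.23 ± 0.17, adjusted p = 0.23).

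Col1a1, the main chain of collagen I, was at 291, 301 and 280 CPM in the controls and at 270, 262 and 251 CPM in the knockouts. The groups did not overlap, and the fall was small (-0.16 ± 0.03, adjusted p = 3.23e-04). Its usual partner Col1a2 had 1, 1 and 2 counts in the controls and 0, 4 and 2 in the knockouts. Per kilobase of exon there were 9180 Col1a1 counts for each Col1a2 count in the controls (95% exact binomial interval 3580 to 33700). In the knockouts there were 7140 (3280 to 19500), and both intervals cover counting error only. These values depend on the length used, since all exons of Col1a2 cover 12426 bases and its longest transcript 5348. By counts alone the ratio was 4850 in the controls and 3770 in the knockouts. Whether Col1a2 reads were lost in the alignment or counting cannot be checked from the count table, so its low counts are not read as a low transcript level. The remaining fibrillar chains, Col2a1 of cartilage and Col24a1, had at most 8 counts in any library and were not tested.

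The collagen IV genes lie in head-to-head pairs, and the 3 pairs differed in level and direction. Col4a1, which with Col4a2 makes the network found in nearly all basement membranes, had the highest level per kilobase of all chains in both groups, 468 and 333 CPM per kb. It was at 3405, 3491 and 3580 CPM in the controls and 2552, 2511 and 2383 CPM in the knockouts. Col4a2 was at 1807, 1825 and 1860 CPM in the controls and at 1229, 1171 and 1145 CPM in the knockouts. Both fell without overlap, Col4a1 by 0.49 ± 0.03 (adjusted p = 9.04e-12) and Col4a2 by 0.63 ± 0.03 (adjusted p = 7.09e-14) on the log2 scale. Their first exons overlap by 22 bases on chromosome 8. The ratio of Col4a1 to Col4a2 per kilobase was 1.69 ± 0.0185 in the controls and 1.86 ± 0.0343 in the knockouts, again without overlap (exact 2-sided permutation p = 0.10, the smallest possible).

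Col4a5 and Col4a6, which form a network together in some epithelial basement membranes, start 1308 bases apart on the X chromosome. Col4a5 was at 403, 407 and 449 CPM in the controls and at 333, 332 and 325 CPM in the knockouts (-0.34 ± 0.04, adjusted p = 3.62e-08). Col4a6 was at 291, 289 and 305 CPM in the controls and at 201, 205 and 196 CPM in the knockouts (-0.56 ± 0.03, adjusted p = 7.54e-13). Both fell in every knockout library, and Col4a6 by more. Their ratio per kilobase went from 1.68 ± 0.0533 to 1.95 ± 0.0285 (exact 2-sided permutation p = 0.10, the smallest possible).

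The third pair rose from near the detection limit. Col4a3, which with Col4a4 and Col4a5 makes the network of the glomerular basement membrane, was at 0.546, 0.782 and 0.794 CPM in the controls and at 6.77, 7.09 and 7.11 CPM in the knockouts. Col4a4 was at 1.32, 1.09 and 1.22 CPM in the controls and at 9.36, 8.29 and 8.24 CPM in the knockouts. These were the largest rises among the tested chains, 9.81-fold for Col4a3 (3.29 ± 0.16, adjusted p = 5.55e-14) and 7.14-fold for Col4a4 (2.84 ± 0.14, adjusted p = 5.19e-14). The control values rest on 47 counts of Col4a3 and 80 of Col4a4 over 3 libraries, against 605 and 748 in the knockouts. Even so, per kilobase of exon the knockout levels were 0.701 CPM per kb for Col4a3 and 0.814 for Col4a4, beside 49.1 for their partner Col4a5 and 333 for Col4a1. The starts of the pair are separated by the 71 bases shown above (Col4a4 at 82448423 to 82586849 and Col4a3 at 82586921 to 82722059, chromosome 1). A noncoding gene, C430014B12Rik, shares 563 bases of exon with Col4a3 on the opposite strand and held 34 counts over all libraries, against 652 for Col4a3.

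Among the other basement membrane chains, Col15a1 had the largest fall of any tested collagen chain. Collagen XV, a proteoglycan that sits between the basement membrane and the underlying fibrils, is encoded by this gene on chromosome 4 (47208161 to 47313167, plus strand). It was at 15.4, 18.4 and 20.6 CPM in the controls and at 0.684, 0.836 and 1.24 CPM in the knockouts. The knockout level was 19.7-fold lower (-4.30 ± 0.16, adjusted p = 2.34e-13), from 1196 counts in the controls to 79 in the knockouts. Its relative Col18a1, whose collagen yields endostatin, was 2.28 to 2.97 CPM in the controls and 1.37 to 1.57 CPM in the knockouts (-0.81 ± 0.18, adjusted p = 3.42e-04). Col7a1, the chain of the anchoring fibrils beneath skin epithelium, was 2.96 to 3.92 CPM in the controls and 3.43 to 3.59 CPM in the knockouts, inside the control range (0.00 ± 0.13, adjusted p = 0.999).

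Col6a1 and Col6a2, the tested chains of collagen VI, lost most of their message. Col6a1 (chromosome 10, 76708792 to 76726168, minus strand) was at 1818, 1756 and 1917 CPM in the controls and at 290, 274 and 286 CPM in the knockouts. Col6a2, its neighbour 85.2 kb away on the same strand (76595762 to 76623630), was at 773, 748 and 839 CPM in the controls and at 123, 122 and 117 CPM in the knockouts. The knockout libraries of both genes lay far below the controls, 6.46-fold for Col6a1 (adjusted p = 3.53e-23) and 6.50-fold for Col6a2 (adjusted p = 4.28e-21). The ratio of Col6a1 to Col6a2 per kilobase was 4.42 ± 0.0725 in the controls and 4.46 ± 0.190 in the knockouts. The groups overlapped, at 4.34 to 4.47 and 4.26 to 4.64, and the log2 difference of 0.01 was within their spread (exact 2-sided permutation p = 0.80). With the longest transcript as length in place of all exons the ratio was 2.79 and 2.81, so its level, unlike its difference, depends on the length used.

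The third chain of the common collagen VI trimer, Col6a3, had 2, 4 and 2 counts in the controls and 2, 0 and 2 in the knockouts. Per kilobase there were 41300 Col6a1 counts for each Col6a3 count in the controls (95% exact binomial interval 21000 to 95700) and 16700 in the knockouts (6540 to 61500). The chains that can replace Col6a3 were no higher. Col6a5 and Col6a6 had 0 counts in all 6 libraries, and Col6a4 had 1 count in 1 knockout library. As for Col1a2, these are counts, and whether Col6a3 reads were lost before or during counting cannot be checked from the table.

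**Figure D3:**
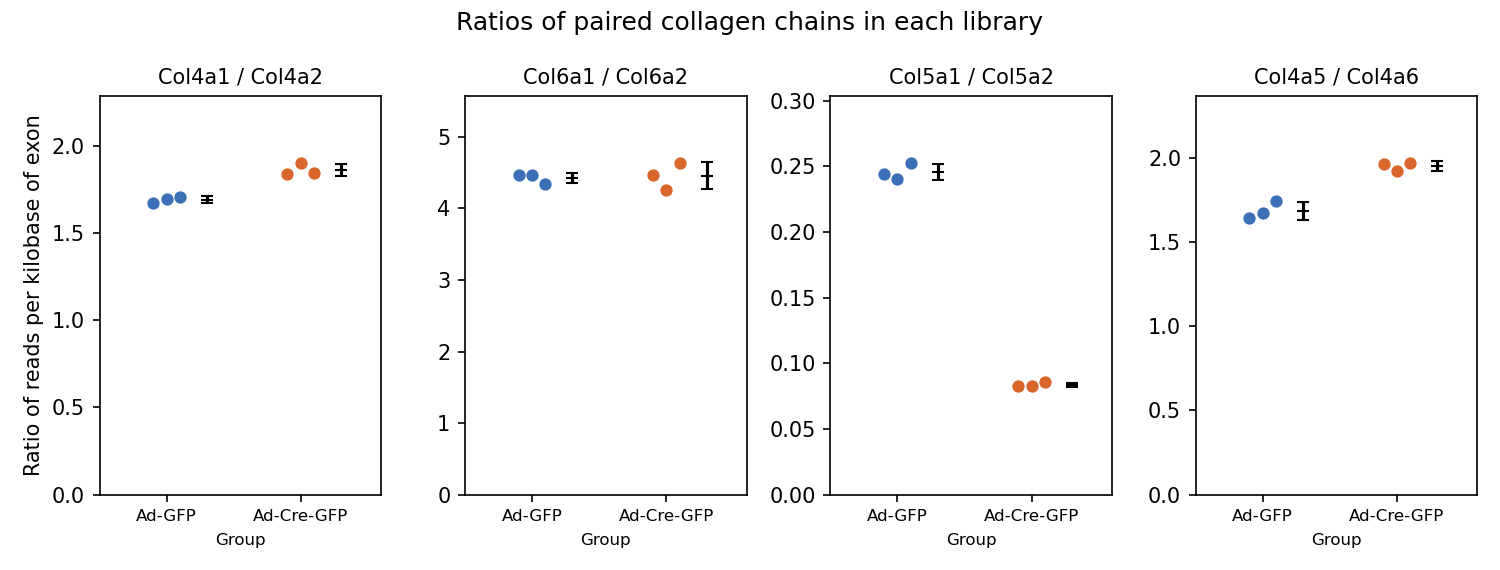
Ratio of the levels per kilobase of exon of 4 pairs of partner chains, with a point for each library and the mean ± SD of 3 libraries. Only the Col6a1 to Col6a2 ratio overlaps between the groups; the Col5a1 to Col5a2 ratio falls from 0.246 to 0.0837.

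Of the 9 FACIT chains, 4 were tested, 2 fell and 2 did not pass the test. That is 50% called, beside 69.8% of all genes called and 35.8% called lower. Col16a1 was at 26.0, 25.5 and 26.2 CPM in the controls and at 11.4, 9.26 and 10.5 CPM in the knockouts (-1.32 ± 0.07, adjusted p = 1.71e-13). Col20a1 was at 11.8, 10.6 and 13.8 CPM in the controls and at 7.52, 6.92 and 7.51 CPM in the knockouts (-0.71 ± 0.09, adjusted p = 7.11e-07). The Col20a1 value is uncertain, because the gene BX649560.1 shares 79 bases of exon with it on the same strand and held 1525 counts, against 1425 for Col20a1. Col12a1, which coats collagen I fibrils and had the highest level per kilobase of the class, was at 108, 102 and 102 CPM in the controls and 109, 104 and 101 CPM in the knockouts. Its groups overlapped throughout, and its log2 fold change was 0.01 ± 0.04 (adjusted p = 0.843). Col9a3, of cartilage, was 0.665 to 1.22 CPM in the controls and 0.444 to 0.702 CPM in the knockouts and did not pass the test (-0.49 ± 0.30, adjusted p = 0.153). The untested members were Col9a1, Col9a2, Col14a1, Col19a1 and Col22a1, with at most 6 counts in a library.

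None of the 4 transmembrane chains passed the filter. Col17a1, the hemidesmosome collagen of stratified epithelium, had 2, 6 and 2 counts in the controls and 3, 2 and 1 in the knockouts. Col23a1 and Col25a1 had at most 2 counts in a library and Col13a1 had none. At 0 counts the limit is 3 counts, or 0.099 to 0.161 CPM depending on the library, here without TMM scaling. It covers counting error only. Of the chains outside the main classes, Col8a1, a short chain that forms the lattice under the corneal endothelium and in vessel walls, was at 529, 530 and 571 CPM in the controls and at 673, 691 and 676 CPM in the knockouts. It rose in every knockout library (0.32 ± 0.03, adjusted p = 9.99e-09). Its partner Col8a2 had 3 to 6 counts in each library, Col10a1 had at most 4, Col26a1 had 1 in all and Col28a1 had 0.

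The summed level of all 44 chains was 1838 ± 53.1 CPM per kb in the controls and 1051 ± 25.9 CPM per kb in the knockouts, 57.2% of control. Within that smaller sum, collagen VI went from 27.9% ± 0.637 to 7.54% ± 0.222 (SD, n = 3) of the reads per kilobase. Basement membrane chains went from 46.1% ± 0.498 to 55.9% ± 0.411 and fibrillar chains from 21.5% ± 0.213 to 27.4% ± 0.0705. The share of the basement membrane class was larger in the knockouts although 6 of its 9 chains fell, since shares are relative to a total that dropped. Single chains exchanged places: Col6a1 went from 22.7% to 6.16%, Col3a1 from 13.0% to 7.15%, Col5a2 from 4.33% to 13.9%, and Col8a1 from 3.77% to 8.26%. Col4a1 was the leading chain in both groups, at 25.5% and 31.6%. Col1a2 and Col6a3 enter these values with almost no counts, and whether their reads were lost cannot be checked. The sum, the shares and the order of the chains therefore describe the counts as deposited.

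**Figure D4:**
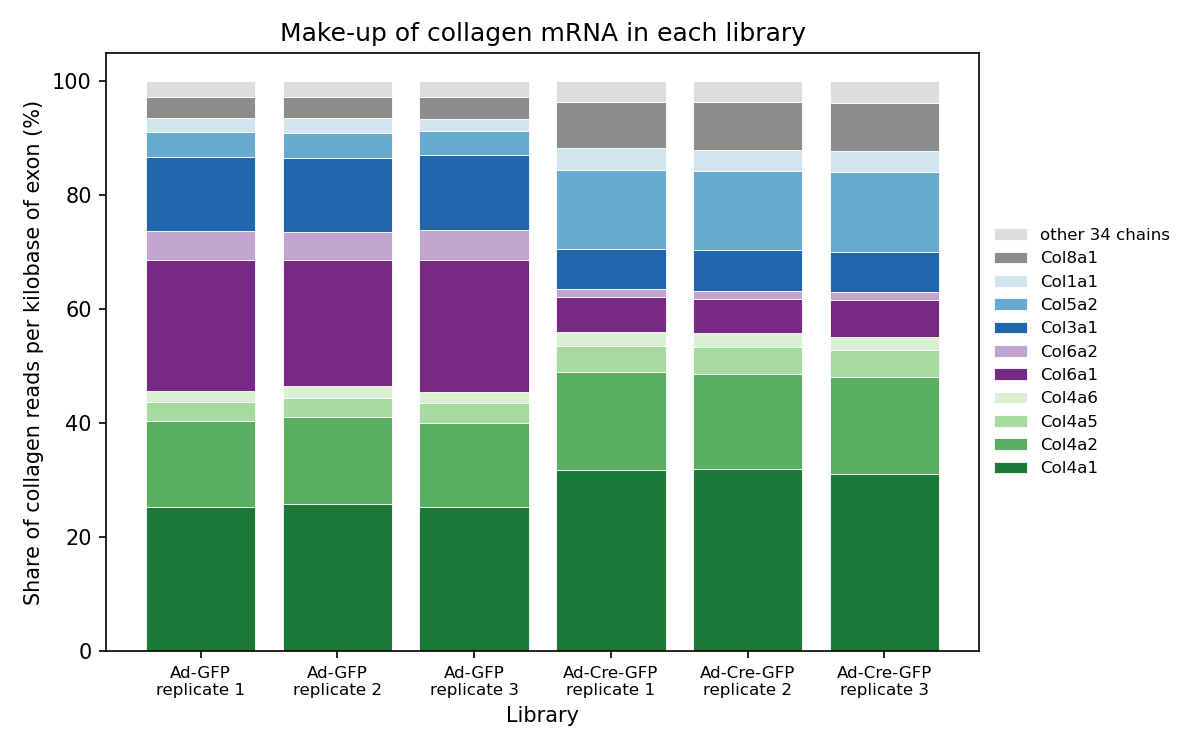
Share (%) of collagen reads per kilobase of exon held by 10 chains and by the other 34 together, stacked for each of the 6 libraries. Col6a1 shrinks from 22.7% to 6.16% and Col5a2 widens from 4.33% to 13.9%, while Col4a1 leads in every library.

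Genes that fold, trim, bind and sense collagen were read beside the chains. Of 21 genes for chain folding and modification, 20 were tested, 13 fell and 2 rose (median log2 fold change -0.34). That is 75% called, near the 69.8% of all genes. By direction, 34.0% of all genes were higher and 35.8% lower. The fall of Crtap was at the threshold (adjusted p = 0.0485) and was lost in 10 of 14 alternatives. The prolyl hydroxylase subunits P4ha1 and P4ha2, which hydroxylate proline and so stabilise the helix, fell from 395 ± 8.25 to 192 ± 1.76 CPM (-1.04 ± 0.03, adjusted p = 4.68e-18) and from 81.0 ± 6.31 to 30.3 ± 0.553 CPM (-1.42 ± 0.05, adjusted p = 1e-15). Fkbp14, a prolyl isomerase of the endoplasmic reticulum, fell by 1.30 ± 0.05 on the log2 scale (adjusted p = 1.62e-15). The collagen galactosyltransferase Colgalt1 rose by 0.21 ± 0.03 (adjusted p = 1.71e-05). Serpinh1, the collagen chaperone HSP47, rose by 0.11 ± 0.03 (adjusted p = 0.00805), a call lost without Ad-GFP replicate 1 (0.09, adjusted p = 0.0575).

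Of 14 genes for propeptide removal and cross-linking, 13 were tested, 5 rose and 6 fell (median 0.04), beside 34.0% of all genes higher and 35.8% lower. Lox, the oxidase that starts cross-links between fibrillar chains, rose from 537 ± 11.0 to 1392 ± 29.1 CPM (1.38 ± 0.03, adjusted p = 5.34e-20). Its relative Loxl4 rose by 1.05 ± 0.10 (adjusted p = 2.3e-09), whereas Loxl3 fell by 2.22 ± 0.07 (adjusted p = 6.36e-17), so members of 1 family moved in opposite directions. Adamts2, which removes the amino-terminal propeptide of fibrillar procollagens, fell from 120 ± 4.27 to 44.9 ± 0.670 CPM (-1.42 ± 0.04, adjusted p = 1.08e-18). Furin, a proprotein convertase, fell by 0.94 ± 0.03 (adjusted p = 2.08e-16). Tll1, a relative of the carboxy-terminal propeptidase Bmp1, rose from 0.473 ± 0.0982 to 3.39 ± 0.252 CPM (2.80 ± 0.21, adjusted p = 1.1e-10).

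Of 12 genes for fibril-binding proteins, 7 were tested, 5 fell and 2 did not pass the test (median -1.49). That is 71.4% called, all of them lower, beside 69.8% of all genes called and 35.8% called lower. Fn1, fibronectin, on which many cells assemble collagen, fell from 5718 ± 105 to 2030 ± 55.0 CPM (-1.49 ± 0.03, adjusted p = 2.35e-20). The small leucine-rich proteoglycans Dcn and Bgn fell by 1.91 ± 0.05 (adjusted p = 1.16e-18) and by 3.07 ± 0.13 (adjusted p = 1.27e-11). Of 13 collagen receptors and uptake genes, 8 were tested, 4 rose and 1 fell (median 0.05). This is 62.5% called beside 69.8% of all genes (34.0% higher and 35.8% lower). The rise of Itga11, an integrin subunit that binds collagen, had overlapping groups (0.323 ± 0.130 and 0.652 ± 0.246 CPM, adjusted p = 0.027) and was lost in 7 of 14 alternatives. Both discoidin domain receptors, kinases that bind collagen, rose: Ddr1 from 362 ± 2.53 to 553 ± 7.05 CPM (0.61 ± 0.03, adjusted p = 2.19e-14) and Ddr2 from 0.303 ± 0.144 to 3.46 ± 0.586 CPM (3.44 ± 0.26, adjusted p = 1.3e-10). Itgb1, the shared beta subunit of the collagen-binding integrins, rose by 0.11 ± 0.03 (adjusted p = 0.00184). Antxr2, through which cells take up collagen VI, fell by 0.40 ± 0.05 (adjusted p = 1.08e-06).

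**Figure D5:**
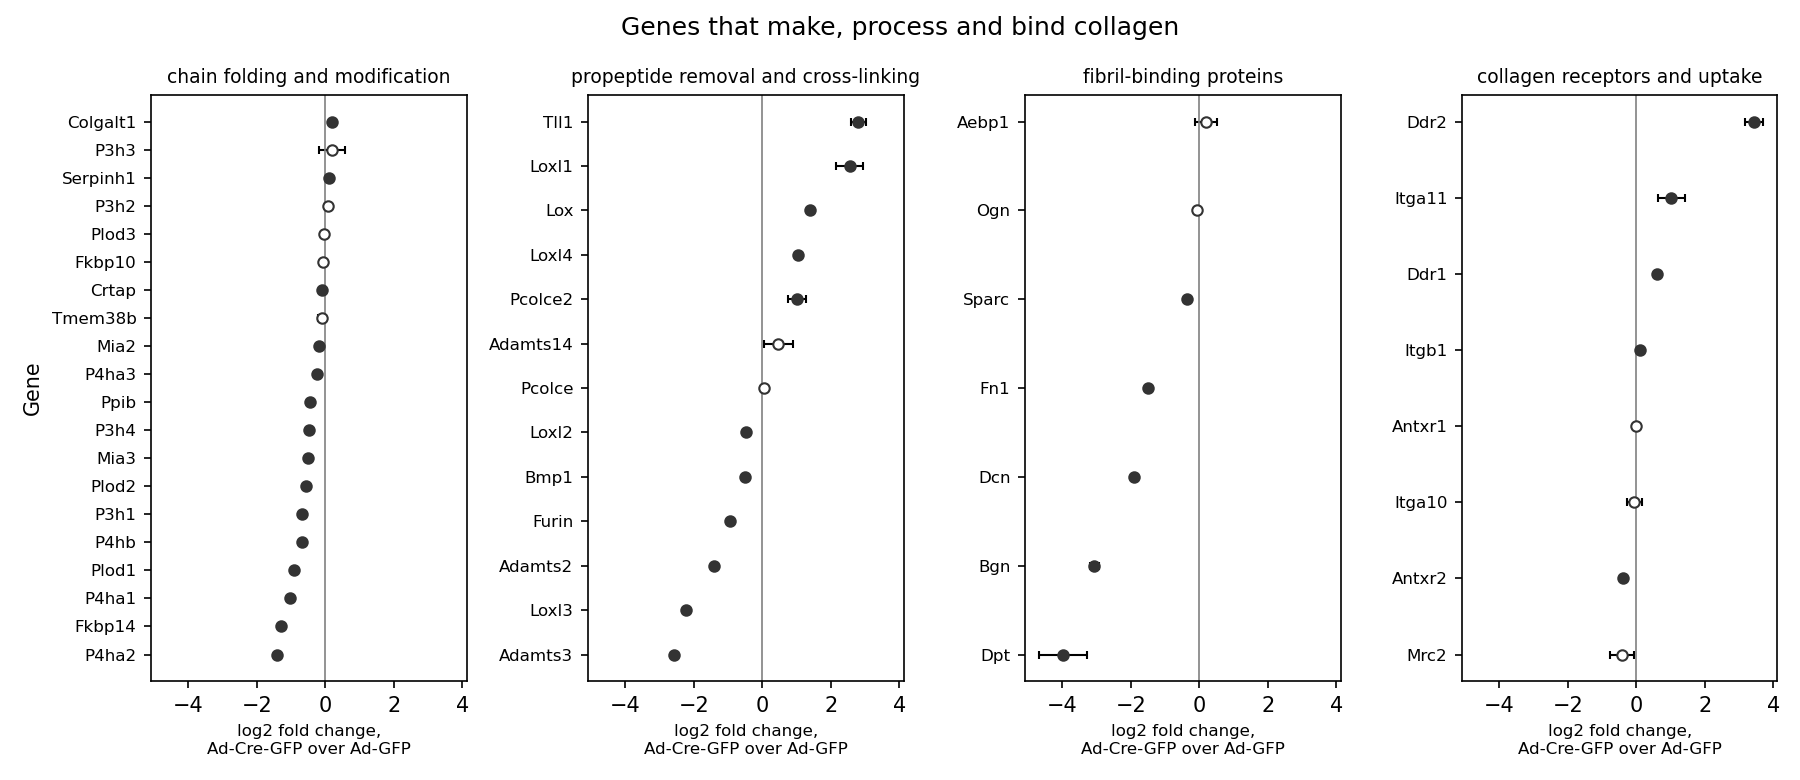
Log2 fold change (knockout over control) with its standard error for the tested genes of the 4 pathway lists; filled points passed an adjusted p of 0.05. Folding genes lie mostly below 0, with P4ha2 at -1.42, while Lox stands at 1.38 and Ddr2 at 3.44.

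Some markers of other ovarian cells differed between the groups, most list sums resting on 1 gene. The few markers called stand beside 34.0% of all genes tested called higher and 35.8% called lower. Of 8 stromal fibroblast markers, 3 were tested and all 3 fell, and their summed level was 93.1 to 96.0 CPM in the controls and 22.8 to 27.2 CPM in the knockouts. Nearly all of it was Dcn, and without Dcn the sums were 1.06 to 1.75 and 0.219 to 0.401 CPM, with Lum, Thy1 and Tcf21 at 0 in all libraries. The 8 pericyte and smooth muscle markers, 2 of them tested and both higher, summed to 8.05 to 8.47 CPM in the controls and 23.8 to 26.9 CPM in the knockouts, mostly Mcam (means of 7.53 and 23.8 CPM). The 7 endothelial markers, 2 of them tested and both higher, summed to 3.02 to 3.13 and 10.2 to 11.6 CPM, with Tie1 and Emcn at 0. Those 2 were Flt1 (control and knockout means of 2.77 and 8.47 CPM) and Kdr (0.0564 and 1.99 CPM). Pecam1 had 14 counts over the controls and 10 over the knockouts, Cdh5 had 0 and 3, and Tek had 3 and 17. The 6 theca markers summed to 23.4 to 28.3 CPM in the controls and 5.06 to 6.60 CPM in the knockouts, but only Star was tested (25.2 and 5.82 CPM), and the other 5 had at most 8 counts in a library. The 7 immune markers summed to 11.0 to 13.2 and 6.65 to 7.29 CPM, where Cd14 fell (9.45 to 4.01 CPM), Cd68 did not pass the test (2.80 and 2.76 CPM) and the other 5 had at most 4 counts in a library. The sums of the 6 granulosa markers overlapped, at 3.23 to 3.78 and 3.17 to 4.31 CPM, while single members moved apart: Foxl2 (2.24 ± 0.49) and Amh (1.17 ± 0.21) rose and Inha (-1.52 ± 0.20) fell on the log2 scale. The Foxl2 value rests on few counts, 1, 8 and 1 in the controls and 22, 28 and 13 in the knockouts. The part of these other ovarian cells in the collagen values was not tested.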

How the data were processed

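RNA of 3 control and 3 knockout libraries was compared. The authors deposited raw read counts for each gene, made from alignment files per the file headers. Tools listed by the submitters' processing notes are kallisto 0.46.2 and sleuth 0.30.1, with GRCm38 as build. Aligner, counting tool and use of strand were not given in the sources used here. Values of overlapping, antisense and near-identical genes are therefore uncertain. Matches to other genes (at least 200 bases at 90% identity, minimap2 2.31) were found for 4 chains, of which only Col9a3 was tested. The Col9a3 match, to Tcfl5, has the length of the 234 bases of exon that these genes share on opposite strands. It is thus an overlap and not a near copy, and Tcfl5 held 1 count against 110 for Col9a3.

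Gene IDs matched GENCODE mouse release 21 for 48058 IDs; 382 did not match. Levels per kilobase use the union of a gene's exons. Genes were filtered with filterByExpr, TMM-scaled and compared with edgeR 4.0.16 in R 4.3.3 (robust quasi-likelihood test, Benjamini-Hochberg adjustment over all 14811 genes, threshold 0.05). Replicate pairs differed by a chi-square of 2.04 to 4.27 per gene (genes with at least 20 counts), so none agreed within sampling noise. Named by library were, in each class, the called chains with the 4 smallest adjusted p-values in each direction and every chain averaging at least 50 CPM; in each pathway list, up to 3 called genes per direction. Other chains are given by range or counts. The chains and lists were chosen with earlier results of these data known.

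Alternatives were DESeq2 1.42.0 (as a test and as size factors), upper-quartile scaling, limma-voom (limma 3.58.1), other low-count filters, thinning to the smallest library, leaving out each library, and a replicate block. Class shares by the longest transcript were added after seeing the data.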

Additional observations from a re-analysis of the deposited data

How the results depend on the processing

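The 20 called collagen chains kept their call and direction in all 14 alternatives. The number called lower was 15 in each, and the number called higher was 5 in 13 and 7 with no low-count filter, which added Col2a1 and Col9a2. Without Ad-GFP replicate 1 the folding genes called higher fell from 2 to 1, so leaving out each library gave 1 to 2. Those called lower were 12 to 14 over the alternatives, with Crtap lost in 10. Receptors called higher went from 4 to 3 in 7 alternatives, which lost Itga11, and fibril-binding genes called lower from 5 to 4 in 2, which lost Dpt. With a mean of at least 1 CPM the propeptide and cross-linking genes called higher went from 5 to 3, as fewer genes were tested, which lost Loxl1 and Pcolce2. Thinning to the smallest library gave 4, which lost Pcolce2. Only values near 0 turned sign. Upper-quartile scaling gave -0.0122 for Col7a1 and -0.0040 for Col12a1, thinning gave -0.0073 for Col12a1, and leaving out each library gave -0.110 to 0.0717 for Col7a1, -0.0125 to 0.0490 for Col12a1 and -0.0192 to 0.0423 for the log2 difference of the Col6a1 to Col6a2 ratio. The cause was not tested.

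With the replicate number as a block, 5 chains were called higher and 15 lower, and it changed no call of a chain; over all genes 10482 were called, against 10344. The correlation of deviations between libraries of the same number was 0.0488, 0.051 and 0.00502, so the numbers do not show a pairing, and not every library correlated best with its own number.

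By the longest transcript the class shares moved to 27.4% and 32.4% (fibrillar), 40.6% and 49.2% (basement membrane), and 26.6% and 7.19% (collagen VI) in control and knockout libraries. The ratios of Col1a1 to Col1a2 and of Col6a1 to Col6a3 were not tested, since Col1a2 and Col6a3 did not pass the filter. At this depth, 0 counts in a library do not show that a chain is absent, since the limit is 3 counts. Counts that low are too few to give a level.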
